A study of Mus musculus with 9 samples.

Results

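The hair cycle regulators described here are 10 genes, namely the signalling genes Shh, Ptch1, Gli1, Wnt10b, Lef1, Fgf5 and Bmp4 and the follicle transcription factor genes Msx2, Foxn1 and Hoxc13. They were chosen by name from the 34637 genes of the deposited expression table and were joined to the count table by gene identifier. All 10 had enough counts to be among the 20817 genes tested. The libraries came from back skin of male C57BL/6 mice, 6 to 8 weeks old at the start, whose backs were shaved on day 0, sensitised with 1% DNCB on day 1 and painted with 0.5% DNCB from day 4 to day 21. DNCB is a small reactive chemical that raises a contact allergy in skin and serves as a model of atopic dermatitis. The FJDHF-M group was fed Fangji Dihuang formulation, a herbal decoction, daily after day 7 until day 28, and the Model group was given water. Both groups were shaved and painted in the same way, and normal skin was not analysed here.

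The hair follicle passes in turn through growth (anagen), regression (catagen) and rest (telogen), and shaving, unlike plucking, does not by itself start a new round of growth. Wnt signals, which act through β-catenin and its partner Lef1, and Sonic hedgehog, which acts through its receptor Ptch1 and the transcription factor Gli1, start and carry growth, whereas BMP signals hold stem cells at rest and later direct the cells of the shaft to mature. Fgf5 is best known for ending growth, since mice that lack it have long hair, and Msx2, Foxn1 and Hoxc13 drive the genes of the hair shaft and its sheaths.

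Each library is known by a column code that neither the sample labels nor the study explain, MR1, MR3, MR3_4, MR4_5 or MR5 on the one side and MXL1, MXL12, MXL3_4 or MXL_3 on the other. The 5 MR libraries were taken as FJDHF-M and the 4 MXL libraries as Model, because the groups have these sizes and MX abbreviates the Chinese for model, and the direction of each comparison of the groups rests on that. Each column was taken as 1 library, although codes such as MR3_4 or MXL12 may stand for pooled RNA. The libraries held 74648669 to 79474215 counts. Skeletal muscle markers summed to between 620.5 and 17964 CPM (counts scaled to a common library total), a spread over both groups. The libraries also differed by base composition. For the 2079 tested genes with the highest GC content (57.25% to 74.2% of the transcript), the median deviation from a gene's own mean over the libraries ran from -0.62 in MXL12 and -0.61 in MR5 to 0.49 in MR3 and 0.68 in MXL1, on the log2 scale. Within each group, libraries thus lay on both sides of 0.

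Start regions from RefSeq were used for 7 of the 10 genes (Ptch1, Wnt10b, Lef1, Fgf5, Bmp4, Msx2 and Foxn1), and those of Shh, Gli1 and Hoxc13 were not analysed here. The 250 bases before the start are printed for Lef1 and Foxn1, whose levels rose and fell together across libraries, and for Fgf5, whose libraries fell into a high and a low set. They lie at chr3:131110047-131110296 on the plus strand (Lef1), chr11:78386609-78386858 on the minus strand (Foxn1) and chr5:98253934-98254183 on the plus strand (Fgf5), all in build GRCm38.p6. Capitals mark the GC box GGGCGG or its reverse CCGCCC, and the CCAAT box or its reverse ATTGG.
Lef1: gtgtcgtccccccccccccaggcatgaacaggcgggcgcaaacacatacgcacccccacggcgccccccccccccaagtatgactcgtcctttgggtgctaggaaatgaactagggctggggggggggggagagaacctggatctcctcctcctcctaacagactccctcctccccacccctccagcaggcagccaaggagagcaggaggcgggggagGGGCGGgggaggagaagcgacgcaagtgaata
Foxn1: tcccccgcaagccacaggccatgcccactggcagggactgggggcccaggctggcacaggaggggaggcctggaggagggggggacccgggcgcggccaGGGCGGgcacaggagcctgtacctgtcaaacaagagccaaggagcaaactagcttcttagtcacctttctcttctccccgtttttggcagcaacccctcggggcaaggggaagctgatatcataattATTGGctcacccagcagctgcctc
Fgf5: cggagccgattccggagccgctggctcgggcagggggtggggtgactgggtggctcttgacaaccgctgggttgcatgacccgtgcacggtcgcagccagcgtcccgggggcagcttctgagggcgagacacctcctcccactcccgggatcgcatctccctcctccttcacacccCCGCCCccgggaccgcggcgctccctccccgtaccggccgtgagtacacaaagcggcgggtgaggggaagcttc
Each of these windows held a GC box, and the Foxn1 window also held a CCAAT box. Over the 10 start regions used for the 7 genes (Lef1 has 4), 8 held a GC box on either strand, against 32.7% of 32851 mouse start regions. A pair of the Lef1 regions overlap and hold the same GC box, which is thus counted in both. A CCAAT box was found in 2, for Msx2 and Foxn1, against 33.8% of all. GC-rich windows can hold these letters more often, and the windows printed had 66.4% (Lef1), 63.2% (Foxn1) and 70.8% (Fgf5) GC against a median of 52.4%. The letters of a Gli site (GACCACCCA, in 0.225% of all regions), a Lef1 site (CTTTGAT, 3.21%) and a homeodomain site (TAATTG, 7.17%) were in none of the 10 windows, and those of a TATA box (TATAAA, 12.4%) were in 1.

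Hedgehog signalling begins with Shh (ENSMUSG00000002633, GRCm38 chromosome 5, 28456815 to 28467256, minus strand), the secreted ligand made by the growing hair matrix. Shh stood at 2.95, 3.67, 5.63, 4.10 and 0.981 CPM in MR1, MR3, MR3_4, MR4_5 and MR5, and at 1.71, 4.60, 2.10 and 1.95 CPM in MXL1, MXL12, MXL3_4 and MXL_3. MR5 was the lowest library and MR3_4 the highest, both in the FJDHF-M group, and all Model libraries lay between them. The counts behind these values ran from 77 to 409, well over the floor of 3 counts (0.0375 to 0.0415 CPM). The group means were 3.47 ± 1.70 CPM in FJDHF-M (SD, n = 5) and 2.59 ± 1.35 CPM in Model (SD, n = 4). The antisense gene 9530036O11Rik shares 446 of the 2847 exon bases of Shh and had 0 to 26 counts, and whether strand was used in counting is not given in the sources used here.

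Ptch1 (ENSMUSG00000021466, chromosome 13, 63508328 to 63573460, minus strand) encodes the receptor that Shh binds and is itself switched on by the pathway. Its levels were 81.9, 83.1, 97.1, 71.4 and 41.8 CPM in MR1, MR3, MR3_4, MR4_5 and MR5, and 63.3, 76.4, 77.0 and 58.2 CPM in MXL1, MXL12, MXL3_4 and MXL_3. As for Shh, MR3_4 was highest and MR5 lowest. Ptch1 had a 2.32-fold range over the 9 libraries, against a median of 2.05-fold over all genes tested, and its SD within groups was above that of 53.8% of genes. The group means were 75.1 ± 20.7 CPM in FJDHF-M (SD, n = 5) and 68.7 ± 9.44 CPM in Model (SD, n = 4).

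Gli1 (ENSMUSG00000025407, chromosome 10, 127329882 to 127341974, minus strand) encodes the transcription factor at the end of the pathway and is often read as its output. It stood at 14.0, 26.2, 14.3, 13.6 and 3.69 CPM in MR1, MR3, MR3_4, MR4_5 and MR5, and at 19.7, 3.73, 6.45 and 13.1 CPM in MXL1, MXL12, MXL3_4 and MXL_3. MR5, MXL12 and MXL3_4 were low, below the widest gap in the order (2.03-fold), and MR3 and MXL1 were high, 1 from each group. The group means were 14.4 ± 7.99 CPM in FJDHF-M (SD, n = 5) and 10.8 ± 7.16 CPM in Model (SD, n = 4). Exons of Gli1 overlap those of Arhgap9 on the opposite strand by 62 of 4995 bases, and Arhgap9 had 660 to 1264 counts.

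The receptor followed the ligand across libraries more closely than Gli1 did. Pearson's r of log2(CPM + 0.5) between Shh and Ptch1 was 0.86 over the 9 libraries (Spearman's rho 0.73), and 0.60 without MR3_4 and MR5. Between Shh and Gli1, r was 0.27 (rho 0.23), and -0.26 without MR3_4 and MR5. MXL12 had the second highest Shh level and the second lowest Gli1 level, with 0.81 Gli1 counts for each Shh count, whereas MXL1 had the second lowest Shh and the second highest Gli1, with 11.6. These correlations, like the others given here, are descriptions over 9 libraries that share a depth, a tissue and the differences in base composition described above.

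**Figure D1:**
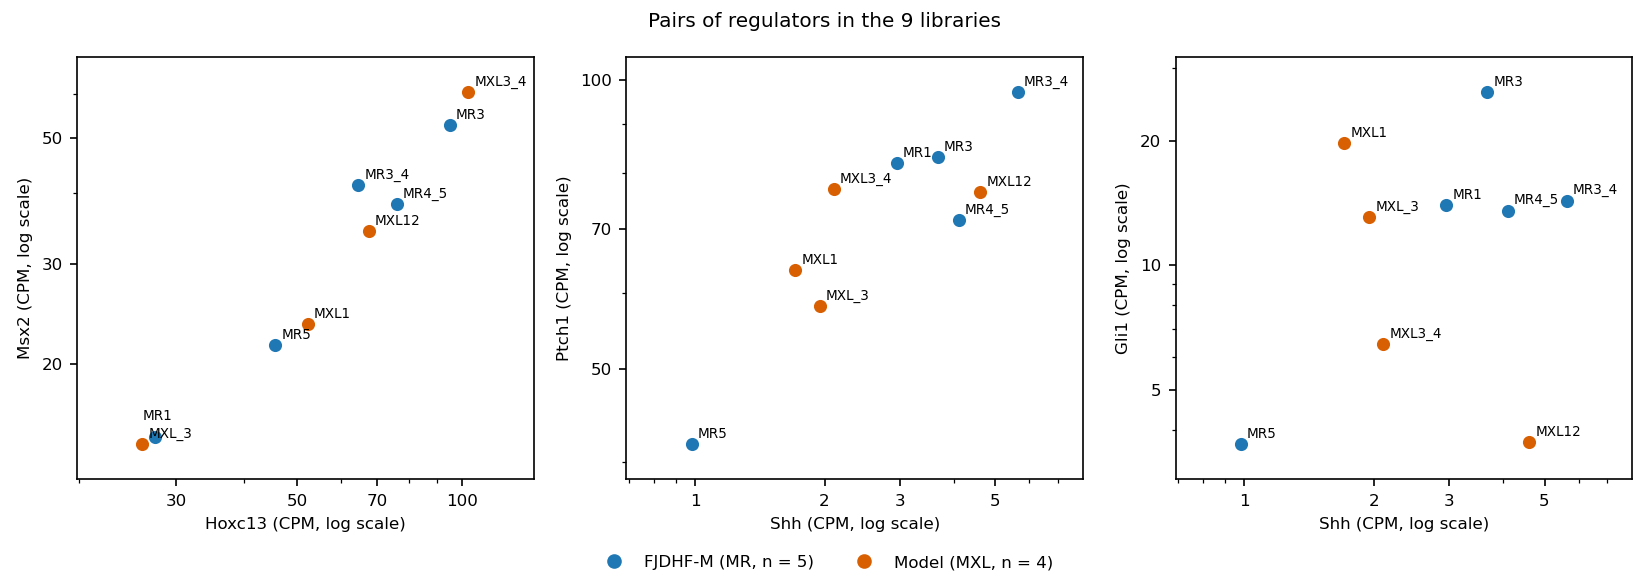
Levels of 3 pairs of regulators in the 9 libraries, in CPM on log axes, with each point 1 library (blue, FJDHF-M, n = 5, and orange, Model, n = 4). Msx2 and Hoxc13 lie close to a line (r = 0.98), Shh and Ptch1 follow each other more loosely (r = 0.86), and Gli1 against Shh is scattered (r = 0.27), with MXL1 and MXL12 in opposite corners.

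Gli1 is rich in GC, at 59.0% of its transcript, more than 95.0% of the tested genes, against 52.3% for Shh and 47.8% for Ptch1. Gli1 moved closely with the level of GC-rich genes in each library (r = 0.96, rho 0.93, and r = 0.90 without MR5 and MXL12). The r values with the same measure were 0.12 for Shh and 0.34 for Ptch1. When the median deviation of genes of like GC content, in 50 bins, was subtracted in each library, the range of Gli1 fell from 6.37-fold to 2.69-fold, on the scale of log2(CPM + 0.5). On that footing r was 0.63 between Ptch1 and Gli1 (0.43 before), 0.31 between Shh and Gli1 and 0.77 between Shh and Ptch1, and MR3 was the highest and MR5 the lowest library for Gli1. This subtraction was chosen after the data were seen. After it, the r with the level of GC-rich genes was still 0.82 for Gli1, and it was 0.51 for Ptch1 and 0.02 for Shh. The r between Ptch1 and Gli1 after the subtraction is thus not free of base composition.

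**Figure D2:**
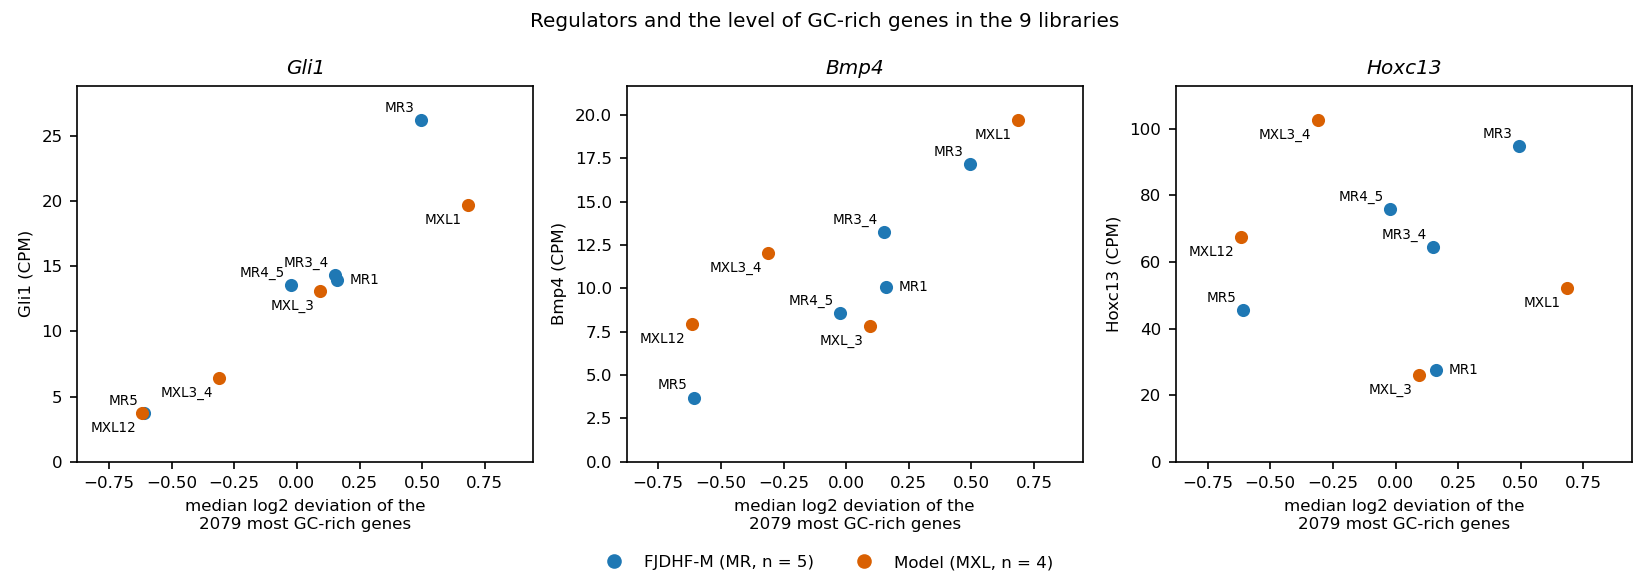
Level in CPM of Gli1, Bmp4 and Hoxc13 in each of the 9 libraries against the median log2 deviation of the 2079 most GC-rich genes in that library, with each point 1 library (blue, FJDHF-M, n = 5, and orange, Model, n = 4). Gli1 climbs with the level of GC-rich genes from MR5 and MXL12 on the left to MR3 and MXL1 on the right (r = 0.96), Bmp4 does so less closely (r = 0.81), and Hoxc13 does not follow it (r = -0.08).

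Wnt10b (ENSMUSG00000022996, chromosome 15, 98770712 to 98778150, minus strand) is the Wnt ligand of the early hair germ. It was at 6.64, 10.4, 10.6, 8.50 and 7.84 CPM in MR1, MR3, MR3_4, MR4_5 and MR5, and at 4.86, 8.81, 8.41 and 7.68 CPM in MXL1, MXL12, MXL3_4 and MXL_3. The 9 values were close together, apart from MXL1 at the bottom. With 15.7% of its variance lying between the groups, Wnt10b had the largest such share of the 10 regulators. The group means were 8.80 ± 1.71 CPM in FJDHF-M (SD, n = 5) and 7.44 ± 1.78 CPM in Model (SD, n = 4).

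Lef1 (ENSMUSG00000027985, chromosome 3, 131110471 to 131224356, plus strand) binds DNA as the partner of β-catenin and marks the cells that will form the shaft. Its levels were 8.99, 47.3, 31.8, 27.5 and 6.08 CPM in MR1, MR3, MR3_4, MR4_5 and MR5, and 13.5, 20.4, 33.8 and 10.9 CPM in MXL1, MXL12, MXL3_4 and MXL_3. The FJDHF-M group held both the highest library, MR3, and the 2 lowest, MR1 and MR5. The means were 24.3 ± 17.0 CPM in FJDHF-M (SD, n = 5) and 19.6 ± 10.2 CPM in Model (SD, n = 4). Lef1 spread more within the groups than 95.5% of the tested genes, with a within-group SD of 1.03 on the log2 scale, and its r with Wnt10b was 0.62 (rho 0.70, and 0.80 without MR3_4 and MXL1).

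Fgf5 (ENSMUSG00000029337, chromosome 5, 98254184 to 98277030, plus strand), the ligand that ends growth, fell into a high and a low set of libraries. It stood at 1.92, 10.9, 2.42, 11.9 and 4.08 CPM in MR1, MR3, MR3_4, MR4_5 and MR5, and at 3.78, 10.1, 17.4 and 4.70 CPM in MXL1, MXL12, MXL3_4 and MXL_3. MR3, MR4_5, MXL12 and MXL3_4, 2 from each group, were at 10.1 CPM or more, and the next library below them was 2.16-fold lower. The means were 6.24 ± 4.78 CPM in FJDHF-M (SD, n = 5) and 9.00 ± 6.25 CPM in Model (SD, n = 4). Among the cell type lists, Fgf5 was most like the 12 markers of cycling cells, such as Mki67 and Top2a (r with their mean log2 level 0.84, rho 0.78, and 0.76 without MR4_5 and MR1).

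Bmp4 (ENSMUSG00000021835, chromosome 14, 46383520 to 46390669, minus strand) is a ligand made in the mesenchyme and in the shaft precursors. It was at 10.1, 17.2, 13.2, 8.59 and 3.68 CPM in MR1, MR3, MR3_4, MR4_5 and MR5, and at 19.7, 7.93, 12.0 and 7.81 CPM in MXL1, MXL12, MXL3_4 and MXL_3. MXL1 and MR3 were highest and MR5 was lowest. The means were 10.6 ± 5.06 CPM in FJDHF-M (SD, n = 5) and 11.9 ± 5.58 CPM in Model (SD, n = 4). Of the other regulators, Gli1 was most like it (r = 0.75, rho 0.85, and 0.50 without MXL12 and MR5), but after the subtraction by GC content this r was 0.56, and Ptch1 (0.75) and Lef1 (0.69) were more like Bmp4 than Gli1 was. Bmp4 had an r of 0.81 with the level of GC-rich genes (rho 0.77, and r = 0.69 without MR5 and MXL12). After the subtraction this r was still 0.77, so the values after it are not free of base composition. The GC content of Bmp4, 52.5%, was above that of 67.8% of the tested genes.

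Among the transcription factors, Msx2 (ENSMUSG00000021469, chromosome 13, 53466884 to 53473074, minus strand), a homeodomain protein needed to keep the shaft in growth, stood at 14.9, 52.8, 41.4, 38.3 and 21.6 CPM in MR1, MR3, MR3_4, MR4_5 and MR5, and at 23.5, 34.3, 60.4 and 14.4 CPM in MXL1, MXL12, MXL3_4 and MXL_3. Hoxc13 (ENSMUSG00000001655, chromosome 15, 102921103 to 102928814, plus strand), the direct activator of hair keratin genes, stood at 27.5, 94.8, 64.5, 75.9 and 45.5 CPM in MR1, MR3, MR3_4, MR4_5 and MR5, and at 52.2, 67.5, 103 and 26.1 CPM in MXL1, MXL12, MXL3_4 and MXL_3. Both genes were highest in MXL3_4 and next in MR3, and lowest in MXL_3 and next in MR1, so the extremes held 1 library of each group. Each was the other's nearest gene among 20816 (r = 0.98, rho 0.95, 0.97 without MR1 and MXL_3, and 0.92 after the subtraction by GC content), and Msx2 had between 0.45 and 0.64 counts for each Hoxc13 count. The means of Msx2 were 33.8 ± 15.4 CPM in FJDHF-M (SD, n = 5) and 33.1 ± 19.9 CPM in Model (SD, n = 4). Those of Hoxc13 were 61.6 ± 26.2 CPM in FJDHF-M (SD, n = 5) and 62.1 ± 32.0 CPM in Model (SD, n = 4).

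Foxn1 (ENSMUSG00000002057, chromosome 11, 78357577 to 78386558, minus strand), the gene lost in nude mice, stood at 11.5, 41.4, 13.6, 29.0 and 8.73 CPM in MR1, MR3, MR3_4, MR4_5 and MR5, and at 19.7, 15.7, 36.6 and 7.72 CPM in MXL1, MXL12, MXL3_4 and MXL_3. MR3, MXL3_4 and MR4_5 were above the other 6 libraries. The means were 20.9 ± 13.9 CPM in FJDHF-M (SD, n = 5) and 19.9 ± 12.2 CPM in Model (SD, n = 4). Foxn1 followed Hoxc13 (r = 0.86, rho 0.92, and 0.75 without MXL3_4 and MR3), Msx2 (r = 0.83, rho 0.85, and 0.77 without MR1 and MXL_3) and Lef1 (r = 0.82, rho 0.83, and 0.69 without MR3 and MR5).

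**Figure D3:**
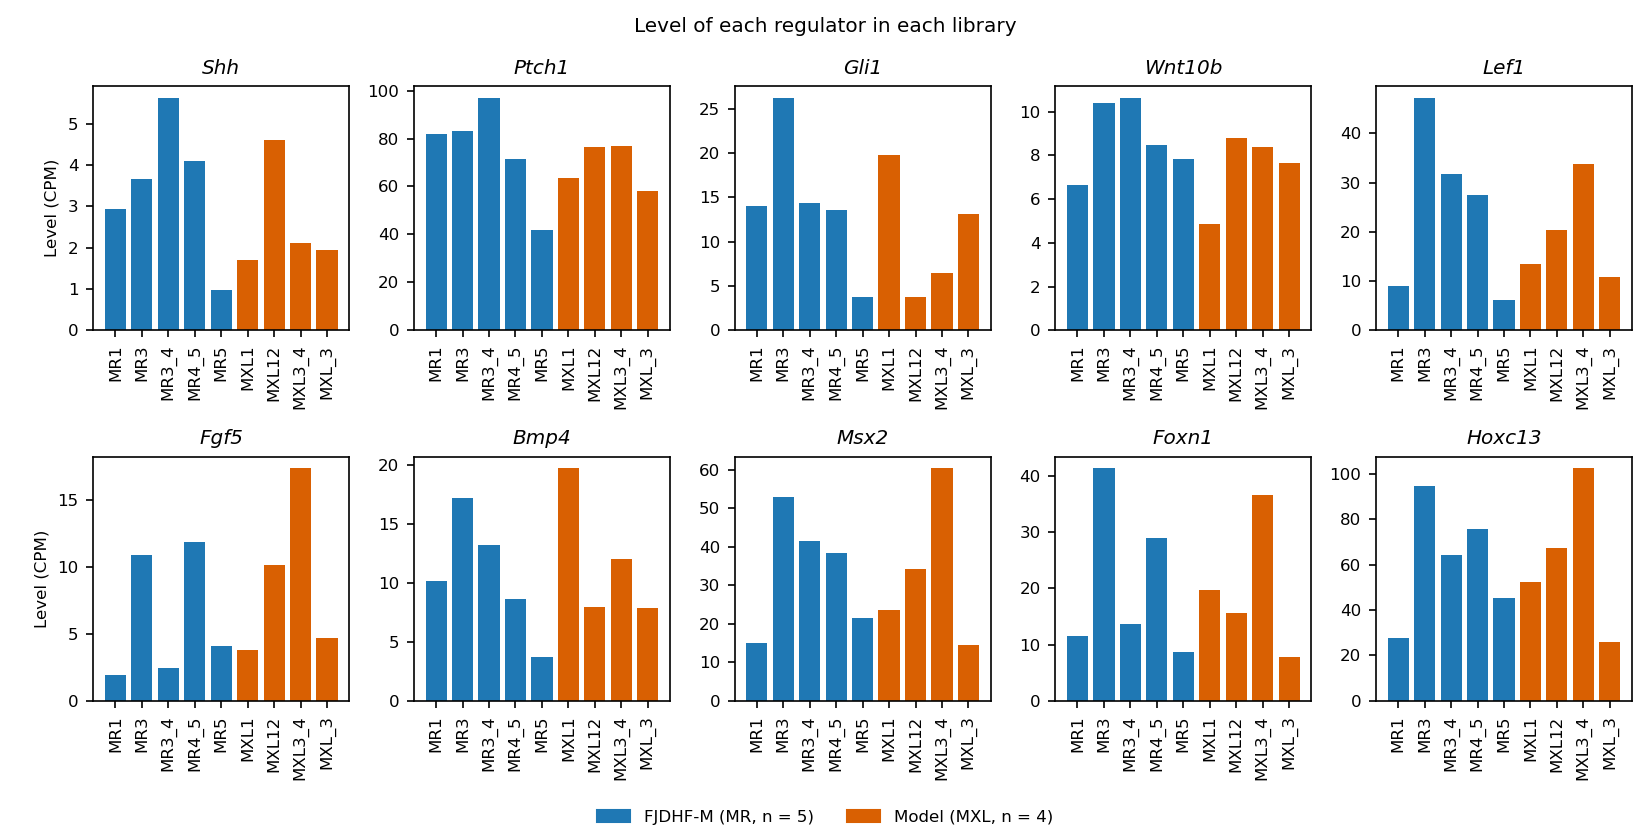
Level of each of the 10 regulators in each library, in CPM from 0, with each bar 1 library (blue, FJDHF-M, n = 5, and orange, Model, n = 4) and a scale of its own in each panel. The bars of the groups overlap for every gene. MR5 is the lowest library for Shh, Ptch1, Gli1, Lef1 and Bmp4, and MXL3_4 the highest for Fgf5, Msx2 and Hoxc13.

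None of the 10 regulators differed between the groups by more than the spread of the libraries. The groups overlapped for all 10, where they did not overlap for 0.514% of the tested genes. By the quasi-likelihood test of edgeR, adjusted by the Benjamini-Hochberg method, 0 of 10 passed an adjusted p under 0.05 with a fold change of at least 2, beside 0% of all genes tested (0 of 20817), and DESeq2's Wald test called 2 genes, none of them a regulator. At an unadjusted p under 0.05, edgeR had 0 of the 10 against 1.57% of all genes (326 genes, of which 161 were higher and 165 lower in FJDHF-M). Over the alternatives run, the lowest adjusted p of any regulator was 0.983. The fitted value was above 0 for 7 of 10, with a median log2 fold change of 0.097 against -0.03 over all genes. That median was -0.15 without MR3 and -0.07 without MXL_3.

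Of the ligands, Shh had a log2 fold change of 0.42 (SE 0.48) with a 95% interval from -0.65 to 1.49 (edgeR's unadjusted p = 0.404, and p = 0.516 by a two-sided exact permutation test). Wnt10b had 0.24 (SE 0.25), with an interval from -0.31 to 0.79 (edgeR's p = 0.349, exact permutation p = 0.302). For Fgf5 the value was -0.53 (SE 0.64) with an interval from -1.94 to 0.88 (edgeR's p = 0.426, exact permutation p = 0.444), and for Bmp4 it was -0.17 (SE 0.43) with an interval from -1.13 to 0.79 (edgeR's p = 0.702, exact permutation p = 0.690). The smallest p that the 126 splits of 9 libraries allow is 0.00794. Of the ligands, Wnt10b, whose level varied least, had an interval inside a 2-fold change in either direction. With 1 library left out, Shh ran from 0.18 (without MR3_4) to 0.85 (without MXL12) and Wnt10b from 0.085 (without MXL1) to 0.33 (without MXL12). For the receptor Ptch1 the value was 0.13 (SE 0.23) with an interval from -0.38 to 0.63 (edgeR's p = 0.588, exact permutation p = 0.778), and it ran from 0.018 without MR3_4 to 0.28 without MR5.

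The effectors Gli1 and Lef1 had wider intervals than Shh, Wnt10b, Bmp4 and Ptch1, though not than Fgf5. Gli1 had a log2 fold change of 0.42 (SE 0.56) with an interval from -0.84 to 1.67 (edgeR's p = 0.477, exact permutation p = 0.532), and the value was 0.056 without MR3 and 0.89 without MXL1. Lef1 had 0.31 (SE 0.58) with an interval from -0.97 to 1.59 (edgeR's p = 0.603, exact permutation p = 0.921), and the value was -0.10 without MR3. The transcription factors lay near 0, at 0.03 (SE 0.45, interval -0.97 to 1.03) for Msx2, 0.07 (SE 0.53, interval -1.12 to 1.25) for Foxn1 and -0.01 (SE 0.42, interval -0.93 to 0.91) for Hoxc13. Their exact permutation p values were 0.873, 0.984 and 0.952. The sign of all 3 turned when single libraries were left out. Without MR3, Foxn1 was at -0.35 and Msx2 at -0.21, and without MXL3_4, Hoxc13 was at 0.34. Bmp4 turned to 0.19 without MXL1 and to 0.05 without MR5, and Fgf5 was at 0.01 without MXL3_4.

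**Figure D4:**
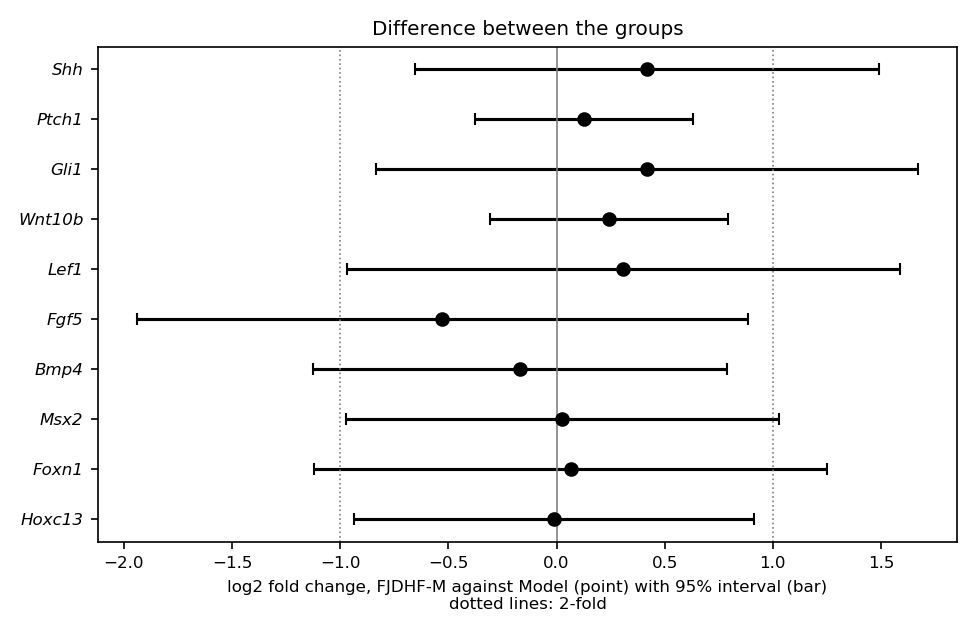
Fitted log2 fold change of each regulator between FJDHF-M (n = 5) and Model (n = 4), with bars for the 95% interval, a solid line at 0 and dotted lines at a 2-fold change. All 10 intervals cross 0. Those of Ptch1, Wnt10b and Hoxc13 stay within the dotted lines on both sides, and that of Fgf5 is the widest.

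Apart from Wnt10b, whose spread was above that of 41.4% of the tested genes, the regulators varied between libraries of the same group more than most genes did. The SD within groups had a median of 0.77 on the log2 scale over the 10 genes, against 0.35 over all genes tested, and it ran from 0.31 for Wnt10b and 0.37 for Ptch1 to 1.03 for Lef1 and Fgf5. The median range from the lowest to the highest library was 4.49-fold for the regulators and 2.05-fold for all genes. The share of variance that lay between the groups had a median of 2.14% for the regulators and 3.16% for all genes. MR3 was above the mean of the 9 libraries for 10 of 10 regulators, MR4_5 for 9, MR3_4 and MXL3_4 for 8 each. MR5 was above it for 0 of 10 and MXL_3 for 1. In bulk skin, fewer follicle cells of a type and less RNA per cell cannot be told apart.

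Compared per length of transcript, in FPKM (fragments scaled by the authors for transcript length and depth), the levels were in the order Hoxc13, Msx2, Foxn1, Ptch1, Bmp4, Fgf5, Gli1, Lef1, Wnt10b and Shh. Hoxc13 had a mean level of 24.0 ± 10.6 FPKM (SD, n = 9) and Shh one of 1.02 ± 0.50 FPKM (SD, n = 9). Hoxc13 was above Msx2 (9.73 ± 4.75 FPKM), Msx2 above Foxn1 (6.09 ± 3.77 FPKM) and Wnt10b (2.29 ± 0.50 FPKM) above Shh in 9 of 9 libraries. The other neighbours in the order did not differ beyond their spread, with the higher gene on top in 4 to 7 of 9 libraries. Ptch1 was at 4.83 ± 1.04, Bmp4 at 4.72 ± 2.18, Fgf5 at 2.85 ± 2.02, Gli1 at 2.44 ± 1.46 and Lef1 at 2.41 ± 1.52 FPKM (SD, n = 9).

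**Figure D5:**
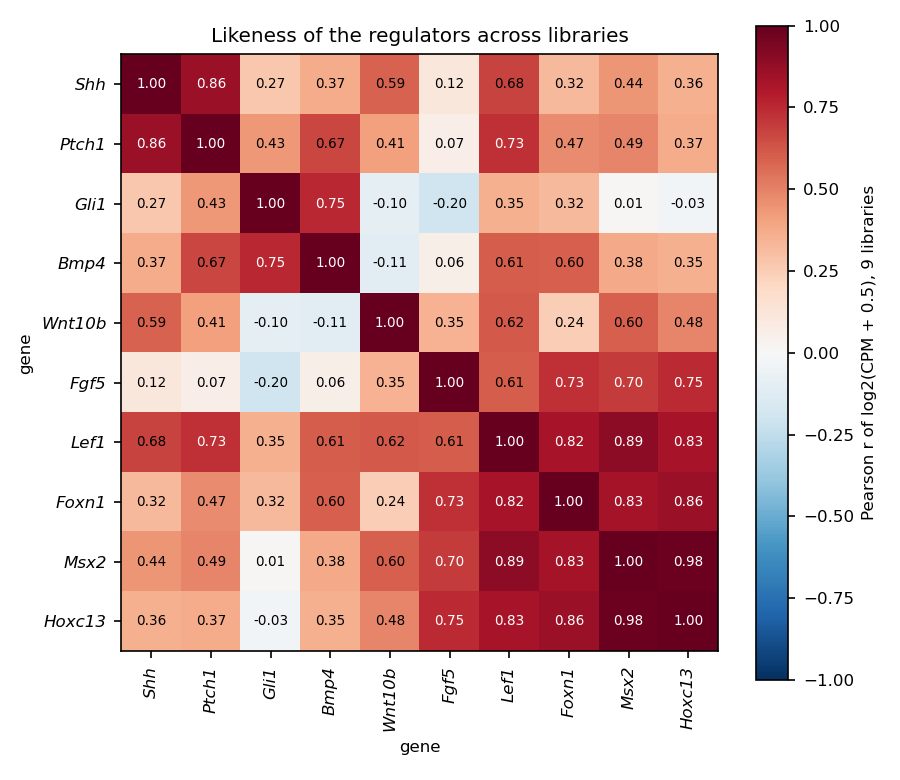
Pearson's r of log2(CPM + 0.5) over the 9 libraries between each pair of the 10 regulators, from blue (below 0) to red (above 0), with the value in each cell. Lef1, Foxn1, Msx2 and Hoxc13 form a block with r between 0.82 and 0.98, Shh and Ptch1 form a pair (0.86), and Gli1 is near 0 with Msx2 (0.01) and Hoxc13 (-0.03).

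Lef1, Foxn1, Msx2 and Hoxc13 moved as a block, with r between 0.82 and 0.98 for the 6 pairs and between 0.66 and 0.92 after the subtraction by GC content. Lef1 and Msx2 had an r of 0.89 (rho 0.92, and 0.97 without MR3 and MR5). Fgf5 was next to this block, with an r of 0.75 to Hoxc13, 0.73 to Foxn1 and 0.70 to Msx2 (0.61, 0.55 and 0.54 without MR4_5 and MXL3_4). The pairs Gli1 and Fgf5 (r = -0.20), Wnt10b and Bmp4 (-0.11), Gli1 and Wnt10b (-0.10) and Gli1 and Hoxc13 (-0.03) were on the other side of 0. With each group's mean taken out, r was 0.98 for Msx2 and Hoxc13 and 0.86 for Shh and Ptch1, and the pairs below 0 were at -0.14 (Gli1 and Fgf5), -0.053 (Wnt10b and Bmp4), -0.21 (Gli1 and Wnt10b) and -0.03 (Gli1 and Hoxc13).

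The genes outside the 10 whose levels were most like the regulators' mean pattern, by r over 9 libraries, included genes of the hair shaft and of pigment cells. Trpm1, a melanocyte channel gene, had an r of 0.994 and stood at 49.6 CPM in MR3, 3.49 CPM in MR5 and 5.35 CPM in MXL_3. It was followed by Krtap10-10 (0.983), Dlx2 (0.981), Krt32 (0.976), Krtap26-1 (0.975), Krtap13-1 (0.973), Krtap11-1 (0.968) and Hsd17b14 (0.967). The 4 Krtap genes encode proteins that bind keratin filaments in the shaft, Krt32 is a cuticle keratin of the shaft and Dlx2 is a homeodomain factor. Near-identical copies of Krtap genes can share reads. After the subtraction by GC content Trpm1 was still first (r = 0.991) and Krt32 second (r = 0.978), whereas Dlx2 moved to rank 521 (r = 0.70).

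Each regulator also had its own nearest genes. For Lef1 they were Dlx2 (0.979), Trpm1 (0.974) and Bambi (0.970), the last a decoy receptor of the BMP pathway. For Foxn1 they were Gm14137 (0.988), Paqr8 (0.977) and the inner root sheath keratin Krt72 (0.970), and for Hoxc13, after Msx2, they were Prpf31 (0.965), Dlx3 (0.956) and Gm28527 (0.956). Dlx3 is a homeodomain factor of hair and tooth. For Msx2 they were Gm28527 (0.977), Gm6035 (0.976) and Tagln3 (0.975), where Gm28527 had as few as 1 count in a library. Fgf5 was nearest to Hunk (0.972), the zinc transporter gene Slc39a10 (0.968) and Bco1 (0.958), and Bmp4 to Reep6 (0.962), Emg1 (0.962) and Wdr34 (0.957). Gli1 was nearest to Dlgap4 (0.995), Klhdc4 (0.991) and Ranbp3 (0.990), which have GC contents of 59.4%, 56.2% and 52.5%. Shh was nearest to Rpl31-ps10 (0.939), Rpl7a-ps10 (0.924) and Zswim6 (0.916), and Wnt10b to Gm7488 (0.958), Gpat4 (0.928) and Prr5l (0.917). The genes near Ptch1 included Gm17018 (0.945) and Gm10269 (0.924). Counts were also low for Rpl31-ps10, Gm7488, Gm6035 and Gm10269, down to 2, 8, 16 and 18 in a library. The pseudogenes among these nearest genes share sequence with their parent genes, so their counts are uncertain.

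Other genes of the same pathways were also compared between the groups. Of 119 further ligands, receptors, effectors, inhibitors and follicle transcription factors, 114 were tested, of which 57 had a fitted value above 0 and 57 below. At an unadjusted p under 0.05 by edgeR's quasi-likelihood test there was 1, against 0.773% of all genes higher and 0.793% lower, and 0 passed the adjustment. It was Sostdc1, a secreted inhibitor of Wnt and BMP signals, with 60.5, 42.9, 41.6, 55.4 and 60.0 CPM in MR1, MR3, MR3_4, MR4_5 and MR5, and 44.4, 36.7, 36.3 and 27.5 CPM in MXL1, MXL12, MXL3_4 and MXL_3. MXL1 overlapped with the FJDHF-M libraries. The log2 fold change was 0.52 (SE 0.19, edgeR's unadjusted p = 0.0202, adjusted p = 1.00). The 5 genes not tested, Ihh, Dkk1, Dkk4, Fgf20 and Fgf21, had at most 38 counts in a library.

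By pathway, 15 hedgehog genes had a median log2 fold change of 0.12, with the co-receptor genes Gas1 at 0.15 and Cdon at -0.03 as the most abundant. The 37 Wnt genes had a median of -0.01, with β-catenin's gene Ctnnb1 at -0.04 and the co-receptor gene Lrp6 at -0.21, and the 11 Wnt inhibitors a median of -0.19, with Apcdd1 at 0.19 and Sfrp1 at -0.22. Of 12 FGF genes 2 had values above 0 and 10 below (median -0.09), with the receptor genes Fgfr1 at 0.17 and Fgfr2 at -0.01. The 16 BMP ligands, receptors and targets had a median of 0.05, with Bmpr1a at -0.03 and Bmpr2 at 0.06, and the 9 BMP inhibitors one of -0.07, with Fstl1 at -0.42 and Twsg1 at -0.07. Of 25 follicle transcription factors, 18 had a value above 0 (median 0.20), with Hr at -0.16 and the vitamin D receptor gene Vdr at -0.08. These lists include the regulators themselves. With 1 library left out, the medians of 5 of the 7 lists changed sign, for example to -0.02 for the hedgehog genes and the transcription factors without MR3, and those of the Wnt inhibitors and the FGF genes did not.

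For lists of follicle cells, the sign of the median also turned with single libraries, apart from the melanocyte markers. The 13 hair shaft keratins analysed had a median log2 fold change of 0.49, 10 above 0 and 0 at an unadjusted p under 0.05, and their summed level ran from 174 to 2622 CPM in FJDHF-M and from 333 to 1105 CPM in Model. That median was -0.51 without MR3 and 0.85 without MXL3_4, and the mean log2 level of the list was 5.07 ± 1.37 in FJDHF-M (SD, n = 5) and 5.09 ± 0.87 in Model (SD, n = 4). Krt87 and Krt33a were at 0.27 and 0.47. The 9 inner root sheath genes had a median of 0.12 (-0.45 without MR3, Krt71 0.18, Tchh -0.05), with sums from 2174 to 12567 CPM in FJDHF-M and from 3136 to 8807 CPM in Model. Bulge and outer root sheath markers had a median of -0.24 (0.27 without MXL1, Krt6a 0.39, Cd34 -0.53). In bulk skin, whether the Krt6a and Cd34 counts came from follicle cells was not tested. Dermal papilla markers had a median of 0.01 (-0.15 without MXL1, Vcan -0.04, Trps1 0.00) and cycling cell markers one of -0.10 (0.13 without MXL12, Mki67 -0.14, Top2a -0.13). All 7 melanocyte markers had values above 0 (median 0.67, Dct 0.67, Tyrp1 0.62), none at an unadjusted p under 0.05 by edgeR's quasi-likelihood test. Their mean log2 level was 4.11 ± 0.65 in FJDHF-M (SD, n = 5) and 3.43 ± 0.81 in Model (SD, n = 4). The groups overlapped, with libraries from 3.17 to 4.79 in FJDHF-M and from 2.44 to 4.32 in Model. Markers were looked up by name in the expression table, where 13 of the 14 hair shaft keratins listed were found and Krt85 was not.

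The regulators followed these lists to different degrees. Foxn1 had an r of 0.95 with the mean log2 level of the inner root sheath genes (rho 0.95, and 0.91 without MXL3_4 and MR3) and 0.90 with the hair shaft keratins (rho 0.95, and 0.87 without MR5 and MR3). For Lef1 the values were 0.82 with each of these lists (0.67 and 0.57 without the same libraries), and for Bmp4 0.84 with the shaft keratins (0.67 without MR5 and MR3). Msx2 (0.84), Lef1 (0.83) and Hoxc13 (0.80) followed the melanocyte markers (0.73, 0.86 and 0.59 without MR3 and MXL_3). With the same markers r was 0.79 for Foxn1, 0.69 for Ptch1, 0.65 for Shh and 0.61 for Wnt10b. Without MR3 and MXL_3 these were 0.59, 0.70, 0.71 and 0.70. Fgf5, Bmp4 and Gli1 were at 0.45, 0.41 and 0.23 with the melanocyte markers. Shh and Wnt10b had r values of 0.35 and 0.18 with the shaft keratins, and of -0.24 and -0.20 without MR5 and MR3.

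Markers of cells outside the follicle were compared in the same way, none passed the adjustment, and their part in the regulators' values was not tested. Of 10 interfollicular keratinocyte markers, 8 had values above 0 (median 0.56), and at an unadjusted p under 0.05 Krt1 (1.48), Flg (1.36), Krt10 (1.23) and Ivl (0.70) were higher and Krt77 (-2.10) lower in FJDHF-M by edgeR's quasi-likelihood test, all with an adjusted p of 1.00. These were 5 of 10 at that threshold, beside 1.57% of all genes tested, in a list chosen with earlier results of these data known. The sum of the list ran from 10187 to 17128 CPM in FJDHF-M and from 3908 to 13962 CPM in Model. All 8 dermal fibroblast markers had values below 0 (median -0.42, Col3a1 -0.57 with edgeR's unadjusted p = 0.0416, Col1a2 -0.54), with sums of 18898 to 33586 CPM in FJDHF-M and 26443 to 47110 CPM in Model. Sebocyte (median -0.36, Scd1 -0.05, Far2 -0.57), adipocyte (0.19, -0.22 without MR3_4, Fabp4 0.07, Adipoq 0.29) and skeletal muscle markers (-0.23, 1.17 without MXL_3, Tnnt3 -0.21, Atp2a1 -0.23) had none at that threshold. Neutrophil markers had a median of -1.02 (S100a9 -1.15, S100a8 -0.89), with Mmp8 at -1.18 (edgeR's unadjusted p = 0.00496), and the median was 0.47 without MXL12.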

How the data were processed

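Poly(A) RNA of mouse back skin was made into strand-specific libraries and read in pairs on a NovaSeq instrument. The authors deposited unscaled whole-number read counts of 55401 genes. A second table deposited by the authors gives FPKM values, fragments scaled for transcript length and depth, of 34637 genes, and repeats the counts in 9 further columns, not used here. The submitters' processing notes name HISAT, StringTie and DESeq2 and the build mm10. Versions, the annotation release and the strand setting of the counting are not given in the sources used here.

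The counts were fitted with edgeR 4.0.16 (R 4.3.3), using filterByExpr with a minimum count of 10, TMM scaling and the quasi-likelihood test without covariates, with Benjamini-Hochberg adjustment over all 20817 genes tested. A gene was called at the study's thresholds, a change of 2-fold or more with an adjusted p under 0.05. CPM are counts scaled to the TMM library sizes. Differences of single genes on log2(CPM + 0.5) were also compared with a two-sided exact permutation test over its 126 arrangements. The labels number separate mice, but nothing ties a column code to one of them, so p values measure the spread between libraries. No pair of libraries agreed within sampling noise (chi-square per degree of freedom 125.6 to 586.5 over all pairs). The floor of 3 counts covers counting error only. The edgeR fit was also run on simulated counts of independent genes, with a fixed dispersion set alike for every gene rather than estimated from the data. Those counts lack the differences in base composition and tissue makeup between libraries.

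Lists of pathway genes and of cell type markers were described by counts and medians, with no test. The 10 regulators and the lists were chosen with earlier results of these data known. Genes named are the 10 regulators, the genes of each list with an unadjusted p under 0.05 (at most 5) or else its 2 most abundant, the 8 genes most like the regulators' mean and the 3 most like each regulator by Pearson's r, of which 1 is not reported here. For the lists that had a gene at that threshold, the most abundant genes Apcdd1, Sfrp1, Col1a2, S100a8 and S100a9 were added after their values were seen.

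GC content came from the longest GENCODE M21 transcript, for 20787 of the tested genes, and start regions from RefSeq (GRCm38.p6). Alternatives were DESeq2's size factors, the Wald test of DESeq2 1.42.0, limma 3.58.1 on log2(FPKM + 1), the skeletal muscle score as covariate, no filter, a minimum of 10 counts in each library, a pseudocount of 0.1, a replicate block, leaving out each library, and, added after the data were seen, a correction in 50 bins of GC content. Python 3.11.15, scipy 1.17.1 and matplotlib 3.10.9 were used for the rest.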

Additional observations from a re-analysis of the deposited data

Results flagged for a closer look

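Over both groups, 60 sets of values (the 10 regulators, the mean log2 levels of the lists and the library totals, for each group) were searched for a library far from the rest by Dixon's ratio of the gap to the range, where chance gives about 3. There were 2. In the Model group, the mean log2 level of the hedgehog genes was high in MXL1, where the gap made up 0.915 of the range against a critical value of 0.829 for 4 libraries. The summed level of the list in MXL1, 538 CPM, was not extreme in Model (510 to 558 CPM). MXL1 also had the highest level of GC-rich genes (0.68), whose part in the flag was not tested. In the FJDHF-M group, the mean log2 level of the BMP inhibitors was low in MR4_5, with a ratio of 0.750 against a critical value of 0.71 for 5 libraries. No single regulator had such a library.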

How the results depend on the processing

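No alternative gave an adjusted p under 0.05 for a regulator (lowest 0.983), and edgeR called 0 genes under every alternative. DESeq2's Wald test called 2 genes. At an unadjusted p under 0.05, 715 genes passed with limma on FPKM and 905 without the filter, both over 34637 genes, and 217 (without MR4_5) to 734 (without MXL1) with 1 library left out. Values near 0 changed sign. Hoxc13 (log2 fold change) was at 0.053 with limma, 0.026 with at least 10 counts, 0.10 with the muscle covariate, and -0.0072 in the difference of centred levels by GC content. Foxn1 was at -0.15 with the GC correction and -0.040 in the difference of centred levels. The cause was not tested.

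With 1 library left out, log2 fold changes ran from -0.10 to 0.71 for Lef1, from 0.18 to 0.85 for Shh, from 0.018 to 0.28 for Ptch1, from 0.056 to 0.89 for Gli1, from 0.085 to 0.33 for Wnt10b, from -0.90 to 0.0089 for Fgf5, from -0.44 to 0.19 for Bmp4, from -0.22 to 0.49 for Msx2, from -0.35 to 0.54 for Foxn1 and from -0.27 to 0.34 for Hoxc13. The differences in mean log2(CPM + 0.5) ran from -0.023 to 0.28 for Ptch1, from -0.25 to 0.46 for Lef1, from -0.42 to 0.10 for Bmp4, from -0.25 to 0.43 for Msx2, from -0.35 to 0.38 for Foxn1 and from -0.33 to 0.32 for Hoxc13. List medians ran from -0.32 to -0.0056 for Wnt inhibitors (-0.041 without MXL12, -0.0056 without MXL_3) and from -1.30 to 0.47 for neutrophil markers (0.47 without MXL12). Other medians that crossed 0 included those of hair shaft keratins (-0.51 to 0.85), inner root sheath genes (-0.45 to 0.36), bulge markers (-0.33 to 0.27), adipocyte markers (-0.22 to 0.40) and skeletal muscle markers (-0.62 to 1.17).

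The codes of both groups share the numbers 1, 3 and 3_4. Deviations from the group means correlated at 0.22, 0.12 and -0.22 between same-numbered libraries. Among these libraries, only MR1 was most like the library of its own number in the other group. The numbers were thus not taken as pairs. With the numbers as a replicate block, MR4_5, MR5 and MXL12 each stood alone under their number. The fitted difference thus rested on the same-numbered libraries. Of those standing alone, MR5 had the lowest Shh level (0.981 CPM) and MXL12 the second highest (4.60 CPM). In that fit 1 regulator had an unadjusted p under 0.05 by edgeR's quasi-likelihood test, namely Shh (log2 fold change 1.04, adjusted p = 1.00), and 281 genes did in all. Bmp4 was at 0.10, Foxn1 at -0.044, Hoxc13 at 0.036, and the medians of Wnt inhibitors and neutrophil markers at 0.044 and 0.51.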
